A study of Mus musculus with 12 samples.

Results

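A set of 10 transcriptional regulators of mitochondrial biogenesis was followed in mouse hearts that had lost cytochrome b5 reductase 3 (CYB5R3) in cardiomyocytes. The genes were picked by name for their role, with earlier results of these data known, and are 10 of the 53700 genes in the count table: the coactivators Ppargc1a and Ppargc1b, the nuclear receptors Esrra, Esrrb, Esrrg, Ppara and Ppard, the transcription factors Nrf1 and Gabpa, and the mitochondrial DNA-binding factor Tfam. Whole-heart RNA came from 6 ac-WT and 6 ac-CYB5R3–KO male mice. Both genotypes carried Myh6-CreERT2, a Cre recombinase that the cardiomyocyte promoter Myh6 drives and tamoxifen activates, and both received tamoxifen (33 mg/kg/d) for 5 days, starting when they were 10 to 13 weeks old, so the controls share the transgene and the drug and differ in having wild-type instead of floxed Cyb5r3 alleles. Hearts were collected 5 days later. Cells other than cardiomyocytes kept Cyb5r3, and in whole-heart RNA fewer cells of a type cannot be told apart from less RNA per cell.

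Making new mitochondria needs proteins from the nuclear and the mitochondrial genome at the same time. The PGC-1 coactivators, encoded by Ppargc1a and Ppargc1b, bind no DNA themselves and act on factors that do: the estrogen-related receptors (ERRs) and PPARs at genes for fatty acid oxidation and respiration, and NRF1 and GABPA (the α chain of NRF2) at genes for respiratory subunits and for TFAM, which packages mitochondrial DNA and starts its transcription. The adult heart, which lives mostly on fatty acids, is rich in these factors.

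All 10 regulators are protein-coding genes. In the NCBIM37 assembly Ppargc1a lies at chr5:51845488-51958964 on the minus strand, Ppargc1b at chr18:61457790-61560085 (minus) and Ppara at chr15:85565413-85633249 (plus). Ppard lies at chr17:28369699-28438414 (plus), Esrra at chr19:6985467-6996303 (minus), Esrrb at chr12:87702067-87862578 (plus) and Esrrg at chr1:189432670-190038764 (plus). Nrf1 lies at chr6:29997988-30103458 (plus), Gabpa at chr16:84835170-84864024 (plus) and Tfam at chr10:70688212-70701028 (minus). The start of Gabpa shares 701 bases with Atp5j, which codes for a subunit of ATP synthase on the opposite strand, and Esrra shares 73 bases with Trmt112 on the opposite strand, while the other 8 overlap no annotated gene. The strand setting of the counting is not given in the sources used here, so reads from these stretches may not have been told apart.

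The libraries held between 43393183 and 53754284 counts. The libraries ac-WT 2 and ac-WT 3 stood apart, with TMM factors of 0.570 and 0.723 against 0.988 to 1.22 in the other 10. TMM is a scaling that keeps most genes level between libraries. Their summed cardiomyocyte markers were 47031 and 37414 CPM (counts scaled to a common library total), against 20546 to 23963 in the other 4 ac-WT hearts and 15408 to 26452 in ac-CYB5R3–KO hearts, and their summed fibroblast markers were 929 and 922 CPM, against 2484 to 3712 in the other ac-WT hearts. All 10 of the cardiomyocyte markers were expressed, and 4 of them were lower in ac-CYB5R3–KO hearts at an unadjusted p under 0.05. All 4 tested cartilage markers and 3 of 4 red blood cell markers were higher. The airway marker of the same list as cartilage had at most 3 counts in any heart and was not tested. This list summed to 4.02 and 3.72 CPM in ac-WT 2 and 3. It summed to 24.7 to 40.5 CPM in the other ac-WT hearts and 58.6 to 128.3 CPM in ac-CYB5R3–KO hearts. Red blood cell sums were 4486 and 1304 CPM in ac-WT 2 and 3 and 222 to 1970.5 CPM in the other ac-WT hearts. In ac-CYB5R3–KO hearts they were 1323 to 12226 CPM. Of the skeletal muscle markers 2 of 3 were lower, with sums of 1600.5 and 1444 CPM in ac-WT 2 and 3 against 663 to 1288 in the other ac-WT hearts, and of the smooth muscle markers 2 of 4 were lower and 1 was higher. Summed macrophage markers were 298 and 330 CPM in ac-WT 2 and 3 against 465 to 1297 in the other ac-WT hearts, and summed adipocyte markers were 1.43 CPM in ac-WT 2 and at most 0.186 in any other heart. Ucp1, which defines brown fat, had at most 3 counts in any heart. The part of these differences in the results was not tested. The fold changes of the regulators and of the genes named from lists are given with and without ac-WT 2 and 3. So are the list counts and the ac-WT correlations with respiratory subunits. Cyb5r3 itself, the targeted gene, was 125.6 ± 38.4 CPM in ac-WT against 53.7 ± 9.07 CPM in ac-CYB5R3–KO hearts (SD, n = 6 each), with no overlap between the groups (log2 fold change -1.22, and -1.41 without ac-WT 2 and 3). Scaled by total counts, the groups did overlap, since ac-WT 2 and 3 were 46.6 and 67.6 CPM against 59.8 ± 10.9 CPM in ac-CYB5R3–KO hearts, and the edgeR adjusted p went from 0.0450 to 0.315.

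The sequences before the start sites show which regulators carry the letters of another regulator's binding site, and are printed for Ppargc1a, on which the comparison turns, and for the 4 regulators that hold a match. They are from RefSeq (GRCm38.p6), 5′ to 3′ on the strand of the gene, ending at the base before the start, with matches in capitals. The motifs were the ERR response element TNAAGGTCA, the GABP site CCGGAAG, the NRF1 core GCGCATGC and the cAMP response element TGACGTCA, on both strands of each window around a start.
Ppargc1a, chr5:51567726-51567875, minus strand: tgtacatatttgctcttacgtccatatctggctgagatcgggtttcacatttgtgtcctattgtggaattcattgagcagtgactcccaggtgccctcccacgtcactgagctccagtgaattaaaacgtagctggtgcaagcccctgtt
Ppara, chr15:85735626-85735775, plus strand: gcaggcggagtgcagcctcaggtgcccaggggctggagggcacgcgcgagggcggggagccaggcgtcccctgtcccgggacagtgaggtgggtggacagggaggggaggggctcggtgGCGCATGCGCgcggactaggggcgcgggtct
Esrra, chr19:6921809-6921958, minus strand: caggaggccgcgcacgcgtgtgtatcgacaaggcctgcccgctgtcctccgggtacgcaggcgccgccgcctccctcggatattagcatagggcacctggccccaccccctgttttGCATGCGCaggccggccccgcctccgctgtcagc
Tfam, chr10:71238045-71238194, minus strand: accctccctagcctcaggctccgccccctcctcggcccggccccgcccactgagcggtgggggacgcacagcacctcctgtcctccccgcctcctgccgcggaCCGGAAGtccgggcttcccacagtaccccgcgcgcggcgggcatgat
Gabpa, chr16:84834974-84835123, plus strand: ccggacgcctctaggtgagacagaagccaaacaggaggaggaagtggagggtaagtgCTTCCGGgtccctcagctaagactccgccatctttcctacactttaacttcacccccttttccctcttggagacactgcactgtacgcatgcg
Tfam had a GABP site on its own strand, 47 bases before the start, and Gabpa had one on the opposite strand, 93 bases before its own. Esrra had an NRF1 core on the opposite strand, 34 bases before the start, and Ppara had a pair of overlapping NRF1 cores, 1 on each strand, beginning 31 and 29 bases before. Of all 32851 promoter windows, 8.86% held the GABP site, 2.71% the NRF1 core, 1.28% the ERR element and 1.79% the cAMP response element. Windows were given for 9 of the 10 regulators, and in none of the 14 windows of these 9 was the ERR element or the cAMP response element found. A match describes the letters and not a bound site.

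The 2 PGC-1 coactivators and Ppara had lower levels in ac-CYB5R3–KO hearts, each by more than 2-fold, but short of an adjusted p of 0.05 in edgeR. In edgeR's quasi-likelihood test, 3 of the 10 were lower at an unadjusted p under 0.05, against 9.73% of the 17847 genes tested, and 0 were higher, against 4.91%. None passed an adjusted p of 0.05, which 18 genes (0.101%) did. With DESeq2, which called 2.53% of the genes, the same 3 passed (adjusted p = 0.0356 for Ppara, 0.0431 for Ppargc1a and 0.0471 for Ppargc1b). The groups overlapped for each of the 10, while 1.04% of all genes had every ac-CYB5R3–KO heart below every ac-WT heart. In 5 of the 10 (Ppargc1a, Ppargc1b, Esrra, Ppara and Ppard) ac-WT 2 and 3 were the 2 highest ac-WT hearts, which held for 18.3% of all genes.

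**Figure D1:**
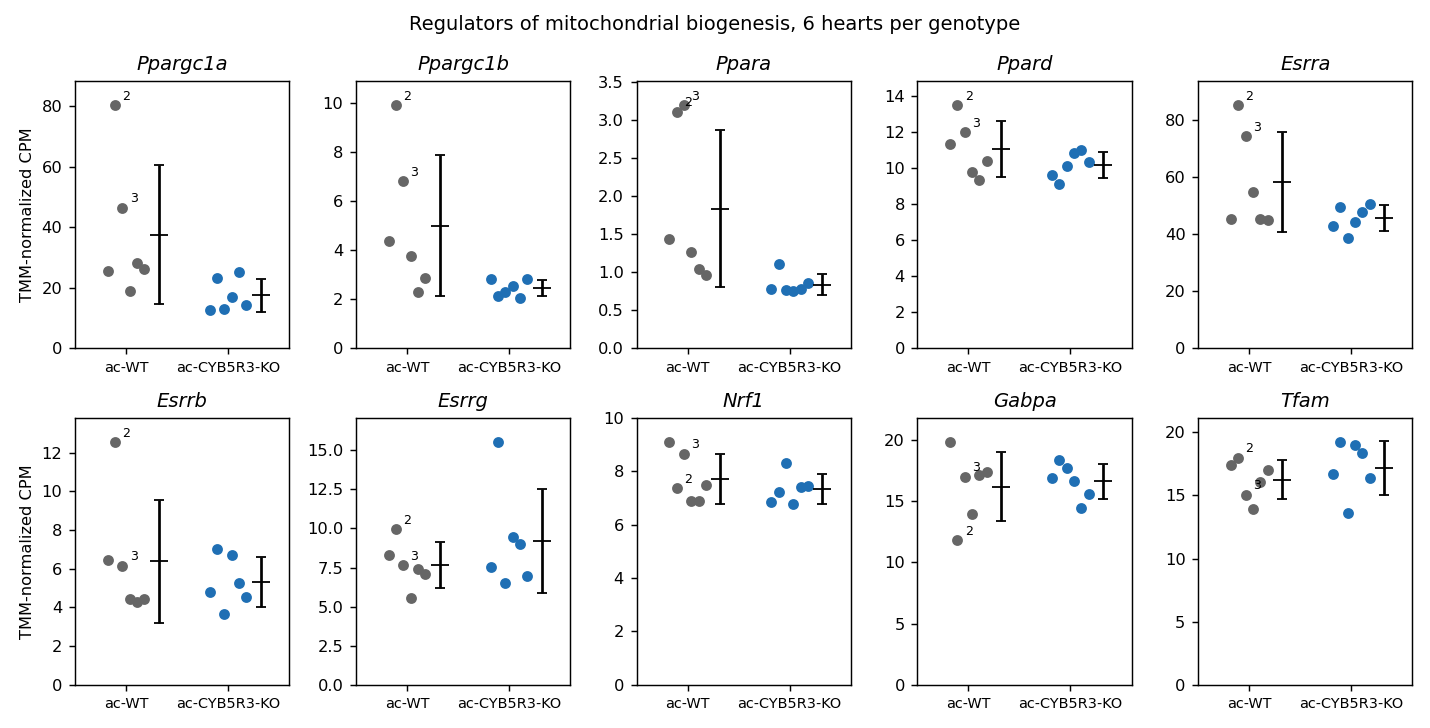
TMM-normalized CPM of the 10 regulators in each heart (points; gray, ac-WT; blue, ac-CYB5R3–KO) with the mean and SD of each group in black, and ac-WT 2 and 3 numbered. Ppargc1a, Ppargc1b and Ppara are highest in ac-WT 2 and 3, and the groups overlap in all 10 panels.

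Ppargc1a, which encodes PGC-1α, was 25.5, 80.3, 46.4, 18.7, 28.1 and 26.1 CPM in ac-WT hearts 1 to 6. In ac-CYB5R3–KO hearts 1 to 6 it was 12.4, 23.05, 12.8, 16.9, 25.3 and 14.1 CPM. In 4 ac-CYB5R3–KO hearts it lay below the lowest ac-WT heart, and the other 2 lay among the lower ac-WT hearts. The log2 fold change was -1.10 (SE 0.33), which is 2.15-fold lower. Its p in edgeR was 0.00475 (adjusted p = 0.191), and a two-sided exact permutation test on log2(CPM + 1) gave p = 0.0130. Without ac-WT 2 it was -0.72, and without ac-WT 2 and 3 it was -0.48 (edgeR, adjusted p = 0.609, exact permutation p = 0.0667).

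Ppargc1b, which encodes PGC-1β, was 4.35, 9.89, 6.80, 3.76, 2.27 and 2.84 CPM in ac-WT hearts 1 to 6. In ac-CYB5R3–KO hearts 1 to 6 it was 2.81, 2.13, 2.30, 2.55, 2.05 and 2.83 CPM. The ac-CYB5R3–KO hearts kept within a narrow band at the level of the lowest ac-WT hearts, with a coefficient of variation of 13.8% against 57.6% in ac-WT. Much of the ac-WT spread came from ac-WT 2 and 3. The SD in ac-WT was 2.87 CPM with them and 0.928 CPM without them, against 0.337 CPM in ac-CYB5R3–KO hearts. The log2 fold change of Ppargc1b was -1.02 (SE 0.31, edgeR p = 0.00502, adjusted p = 0.192, exact permutation p = 0.0195). It was -0.42 without ac-WT 2 and 3 (edgeR, adjusted p = 0.598, exact permutation p = 0.0619).

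Of the PPARs, Ppara codes for the receptor that switches on fatty acid oxidation genes in the heart and Ppard for a broadly expressed relative. Ppara was 1.43, 3.11, 3.19, 1.27, 1.04 and 0.967 CPM in ac-WT hearts 1 to 6. It was 0.777, 1.10, 0.761, 0.745, 0.771 and 0.855 CPM in ac-CYB5R3–KO hearts 1 to 6. In 5 ac-CYB5R3–KO hearts it lay below every ac-WT heart, and ac-CYB5R3–KO 2 lay above 2 of them. The log2 fold change of Ppara was -1.12 (SE 0.32, edgeR p = 0.00333, adjusted p = 0.184), with an exact permutation p of 0.00649. Without ac-WT 2 and 3 it was -0.48 (edgeR, adjusted p = 0.544, exact permutation p = 0.0190). Ppara rested on few reads, 38 to 115 per library. Ppard, in contrast, ran from 9.31 to 13.5 CPM (median 10.9) in ac-WT and from 9.13 to 10.99 CPM (median 10.2) in ac-CYB5R3–KO hearts. The log2 fold change of Ppard was -0.12 (SE 0.10), with an adjusted p of 0.605 in edgeR, and 0.0076 (SE 0.09) without ac-WT 2 and 3.

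The ERRs did not pass the test. Esrra, the receptor most tied to PGC-1α at respiratory genes, ran from 44.9 to 85.3 CPM (median 50.1) in ac-WT and from 38.6 to 50.7 CPM (median 46.0) in ac-CYB5R3–KO hearts. For Esrra the log2 fold change was -0.35 (SE 0.17, edgeR adjusted p = 0.344, exact permutation p = 0.119), and it was -0.05 (SE 0.10) once ac-WT 2 and 3, at 85.3 and 74.4 CPM, were left out. Esrrb ran from 4.26 to 12.5 CPM (median 5.29) in ac-WT and from 3.67 to 7.0 CPM (median 5.03) in ac-CYB5R3–KO hearts. The log2 fold change of Esrrb was -0.25 (SE 0.26), and 0.14 (SE 0.20) without ac-WT 2 and 3. Of the ac-WT hearts, 1 (ac-WT 2) lay above the ac-CYB5R3–KO hearts. Esrrg, the ERR known for maintaining oxidative metabolism in heart muscle, had the opposite sign. It ran from 5.54 to 9.96 CPM (median 7.54) in ac-WT and from 6.50 to 15.5 CPM (median 8.28) in ac-CYB5R3–KO hearts, and the log2 fold change was 0.26 (SE 0.21, edgeR adjusted p = 0.567), and 0.38 (SE 0.23) without ac-WT 2 and 3. The highest value was that of ac-CYB5R3–KO 2, and without this heart the log2 fold change was 0.05 (edgeR, adjusted p = 0.920).

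Nrf1, Gabpa and Tfam had the smallest differences of the 10 under TMM with all 12 hearts. In the TMM fit without ac-WT 2 and 3, Ppard (0.0076) and Esrra (-0.05) differed less than Tfam (0.11). With total counts the log2 fold changes of Nrf1, Gabpa and Tfam were 0.20, 0.27 and 0.35 (exact permutation, p = 0.227, 0.195 and 0.0411). The all-gene median was then 0.26, and relative to it they were -0.05, 0.02 and 0.09. Nrf1 ran from 6.88 to 9.10 CPM (median 7.43) in ac-WT and from 6.78 to 8.31 CPM (median 7.31) in ac-CYB5R3–KO hearts (log2 fold change -0.08, SE 0.10). Gabpa ran from 11.8 to 19.8 CPM (median 17.1) in ac-WT and from 14.4 to 18.3 CPM (median 16.8) in ac-CYB5R3–KO hearts (log2 fold change 0.04, SE 0.12). Tfam ran from 13.9 to 17.99 CPM (median 16.5) in ac-WT and from 13.6 to 19.2 CPM (median 17.5) in ac-CYB5R3–KO hearts (log2 fold change 0.08, SE 0.10). The groups overlapped for each, although 3 ac-CYB5R3–KO hearts lay above the highest ac-WT heart for Tfam. Without ac-WT 2 and 3 the log2 fold changes were -0.04, -0.03 and 0.11. With all hearts the edgeR adjusted p was 0.749 for Nrf1, 0.906 for Gabpa and 0.723 for Tfam. These p do not show equal levels.

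**Figure D2:**
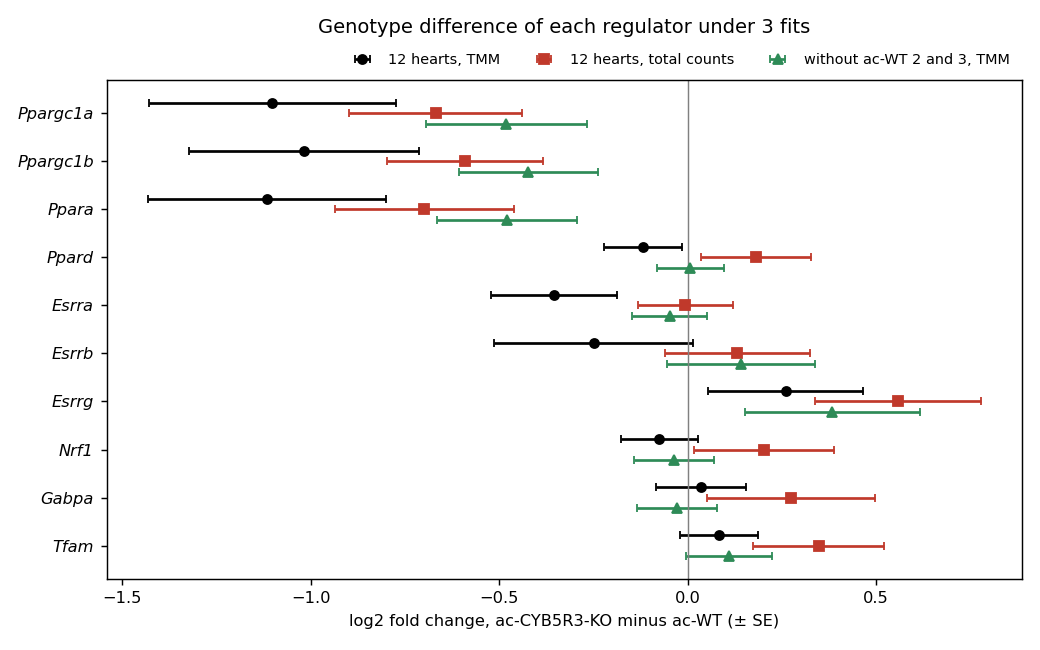
Log2 fold change (ac-CYB5R3–KO minus ac-WT, ± SE) of each regulator from edgeR with TMM on 12 hearts (black circles), with total counts on 12 hearts (red squares) and with TMM without ac-WT 2 and 3 (green triangles). Ppargc1a, Ppargc1b and Ppara stay below 0 in all 3 fits, between -1.12 and -0.42, while Esrrb, Ppard, Nrf1 and Gabpa cross 0.

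Scaling by total counts instead of TMM moved the all-gene median of the log2 fold change from -0.01 to 0.26. On that scale the changes relative to the median gene were -0.92 for Ppargc1a, -0.85 for Ppargc1b, -0.96 for Ppara, -0.26 for Esrra and 0.30 for Esrrg. The log2 fold changes themselves were -0.67, -0.59 and -0.70 for the first 3, which remained lower at an unadjusted p under 0.05, as 2.06% of all genes were. Esrrg was then higher at 0.56 (edgeR, adjusted p = 0.410, exact permutation p = 0.0390), as were 9.45% of all genes. Without ac-WT 2 and 3 the same 3 were lower at an unadjusted p under 0.05, against 4.54% of all genes.

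Per length of transcript, Esrra was the most abundant of the regulators and Ppara the least. In ac-WT hearts the levels, in CPM per kilobase, were 23.0 ± 6.86 (SD, n = 6) for Esrra, 5.65 ± 3.45 for Ppargc1a, 3.66 ± 0.347 for Tfam, 2.84 ± 0.498 for Gabpa and 2.39 ± 0.334 for Ppard. Below these came Ppargc1b at 1.25 ± 0.719, Esrrg at 1.24 ± 0.234, Esrrb at 1.05 ± 0.524, Nrf1 at 0.752 ± 0.0909 and Ppara at 0.478 ± 0.269 CPM per kilobase. Esrra lay apart from the next gene in every heart of both groups, and the ranges of all other neighbors in the ac-WT order overlapped. In ac-CYB5R3–KO hearts Ppargc1a (2.62 ± 0.828 CPM per kilobase) was 4th, below Tfam (3.88 ± 0.480) and Gabpa (2.92 ± 0.251), and Ppargc1b (0.613 ± 0.0845) was 9th, below Nrf1 (0.714 ± 0.0538), although Ppargc1a overlapped Gabpa and Ppargc1b overlapped Nrf1 across hearts.

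Whether the regulators varied with their respiratory targets was examined across hearts of a genotype, since the groups differ on both axes and a pooled correlation would mix them. The respiratory level of a heart was the mean log2(CPM + 1) of 81 subunits that nuclear genes encode for respiratory complexes I to V, which was 7.95 to 9.02 in ac-WT and 7.44 to 7.85 in ac-CYB5R3–KO hearts, highest in ac-WT 2 and 3 (9.02 and 8.49) and lowest in ac-CYB5R3–KO 3. The subunits themselves are among the genes that these regulators are known to control. Every one of the 17847 genes received the same correlation. Exact permutation p was under 0.05 in 22.9% of them in ac-WT hearts (11.4% with positive r) and in 15.2% in ac-CYB5R3–KO hearts (5.73% with positive r), and none passed an adjusted p of 0.05. The lowest adjusted p of any gene was 0.160 in ac-WT and 0.210 in ac-CYB5R3–KO hearts, so no single correlation was established.

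In ac-WT hearts the coactivators, Ppara, Ppard, Esrra and Esrrb were high in the hearts where the subunits were high. Of the 10, 6 had an exact permutation p under 0.05, all with positive r. Ppargc1a had the highest, r = 0.97 (exact permutation, p = 0.00972, adjusted p = 0.160, rho = 0.83, p = 0.0583), a value that 1.51% of all genes reached. The other 5 were Esrra (r = 0.92), Esrrb (0.91), Ppargc1b (0.90), Ppara (0.89) and Ppard (0.86), with exact permutation p from 0.0194 to 0.0403 and adjusted p from 0.160 to 0.196. Their rho ran from 0.54 for Esrrb to 0.77 for Esrra and Ppara (exact permutation, p = 0.103 to 0.297, adjusted p = 0.457 to 0.593). These relations rest on ac-WT 2 and 3: without them r was 0.52 for Ppargc1a, 0.16 for Esrrb, 0.14 for Ppara, -0.27 for Ppard, -0.31 for Ppargc1b and -0.36 for Esrra. They also rest on TMM, since with total counts r was 0.62 for Ppargc1a and between -0.31 and 0.25 for the other 5. Over all 12 hearts, with the mean of each genotype removed, r was 0.89 for Ppargc1a, 0.92 for Esrra, 0.88 for Esrrb and 0.86 for Ppara. Such values were reached by 1.81% to 4.16% of all genes. Without ac-WT 2 and 3, with the means taken again over the 10 hearts left, r was 0.56, 0.61, 0.67 and 0.37. Between the same settings r went from 0.83 to -0.06 for Ppargc1b, from 0.71 to -0.12 for Ppard and from 0.54 to 0.64 for Esrrg. It went from 0.44 to 0.77 for Tfam, from -0.08 to -0.41 for Nrf1 and from -0.61 to -0.06 for Gabpa. With the 12-heart means kept, r over these 10 hearts was 0.72 for Ppargc1a, 0.81 for Esrra, 0.74 for Esrrb and 0.76 for Ppara. Those means included ac-WT 2 and 3, so these values still hold part of the genotype difference. Within ac-WT, Esrrg (r = 0.74), Tfam (0.37), Nrf1 (0.06) and Gabpa (-0.68) did not pass (exact permutation, p = 0.126 to 0.975, adjusted p = 0.329 to 0.988). Without ac-WT 2 and 3 their r was 0.50, 0.16, 0.04 and 0.37.

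**Figure D3:**
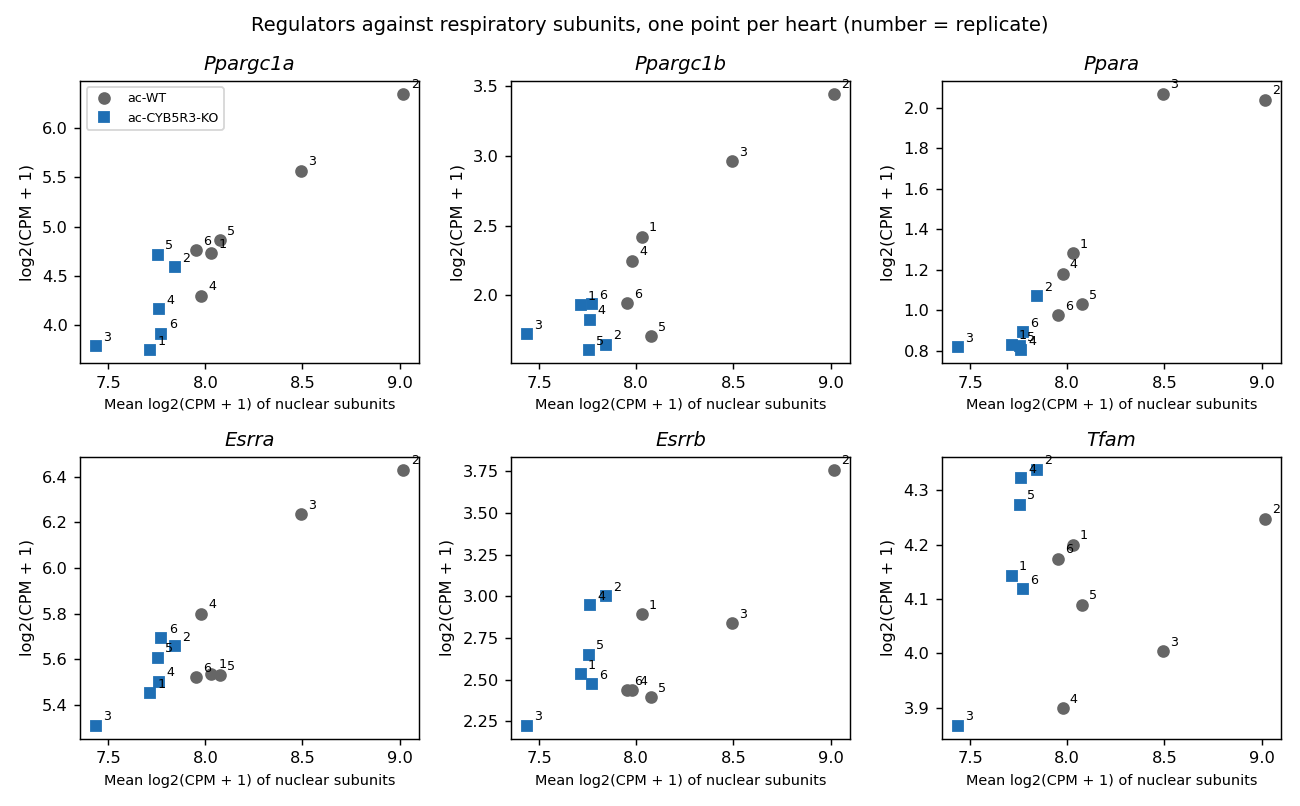
Log2(CPM + 1) of 6 regulators against the mean log2(CPM + 1) of 81 nuclear-encoded respiratory subunits, one point per heart (gray circles, ac-WT; blue squares, ac-CYB5R3–KO), numbered by replicate. In ac-WT the trend is set by hearts 2 and 3 at 9.02 and 8.49 on the x axis, and in ac-CYB5R3–KO Esrra and Tfam are lowest in heart 3 at 7.44.

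In ac-CYB5R3–KO hearts the 3 regulators with an exact permutation p under 0.05 were Tfam, Esrra and Esrrb. Tfam had r = 0.91 (exact permutation, p = 0.0264, adjusted p = 0.262, rho = 0.66, p = 0.175), Esrra r = 0.87 (p = 0.0153, adjusted p = 0.227, rho = 0.89, p = 0.0333) and Esrrb r = 0.80 (p = 0.0250, adjusted p = 0.259, rho = 0.66, p = 0.175). Left without hearts 2 and 3, the 2 farthest from the median, r was 0.77 for Esrra, 0.28 for Tfam and 0.25 for Esrrb, so the relations of Tfam and Esrrb rest on those hearts. With total counts r was 0.87 for Esrra (exact permutation, p = 0.05), 0.82 for Tfam (p = 0.0528) and 0.67 for Esrrb (p = 0.150). With the 13 mitochondrially encoded subunits in place of the nuclear-encoded ones none of the 3 passed (exact permutation, r = 0.19, p = 0.718 for Esrra, r = 0.60, p = 0.214 for Tfam and r = 0.46, p = 0.365 for Esrrb), whereas Nrf1 had r = -0.93 (p = 0.0139). Ppargc1a had r = 0.57 (exact permutation, p = 0.244), Ppara 0.51 (p = 0.214), Ppargc1b 0.03 (p = 0.947) and Nrf1 -0.74 (p = 0.122). With all hearts and TMM, the median r over the 10 was 0.87 in ac-WT and 0.54 in ac-CYB5R3–KO hearts, beside 0.01 and -0.02 over all genes. The ac-WT median takes in the relations that rest on ac-WT 2 and 3 and on TMM. The difference in r between genotypes was not tested.

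**Figure D4:**
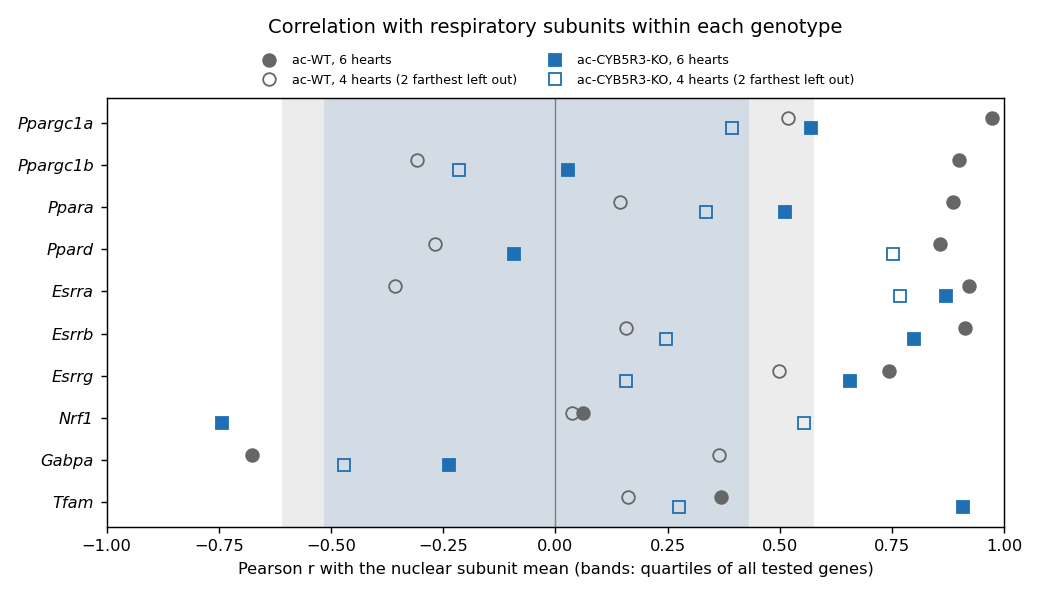
Pearson r of each regulator with the nuclear subunit mean within ac-WT (gray circles) and ac-CYB5R3–KO (blue squares), over 6 hearts (filled) and over 4 hearts after the 2 farthest from the median were left out (open); bands span the quartiles of r over all tested genes. The 6 ac-WT points lie at 0.86 or above and fall to between -0.36 and 0.52 without ac-WT 2 and 3, while Esrra in ac-CYB5R3–KO hearts goes from 0.87 to 0.77.

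Over all 12 hearts, with the mean of each genotype removed, the genes most like Ppargc1a were Eci1 (r = 0.98), Bckdhb (0.97), Ech1 (0.97), Scrn2 (0.97) and Podxl2 (0.96). Eci1 and Ech1 code for enzymes of fatty acid oxidation and Bckdhb for a subunit of the branched-chain keto acid dehydrogenase. Eci1 was 96.3 CPM on average in ac-WT and 45.8 CPM in ac-CYB5R3–KO hearts, which is -1.07 as a log2 fold change (edgeR, adjusted p = 0.173). The genes most like Esrra were Ccdc101 and Ipo13 (r = 0.97 each), Pias4 and Gm13328 (0.96 each) and Med25 (0.95). These r describe hearts that share ac-WT 2 and 3 as extremes, and carry no test.

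Other genes of the pathway were counted in lists, beside the 9.73% of all genes that were lower. Of 36 PPAR and ERR target genes, 15 were lower and 0 higher at an unadjusted p under 0.05, with a median log2 fold change of -0.35 beside -0.01 over all genes. The 4 with the smallest p were Ech1, Slc25a4, Plin5 and Acot2. Slc25a4, the main adenine nucleotide carrier of heart mitochondria, was 2913 ± 1516 CPM (SD, n = 6) in ac-WT and 1540 ± 226 CPM in ac-CYB5R3–KO hearts (log2 fold change -0.92, edgeR adjusted p = 0.188). Ech1 had a log2 fold change of -1.003 (edgeR, adjusted p = 0.186). For Plin5, a coat protein of lipid droplets, it was -1.10 (adjusted p = 0.211), and for Acot2, a mitochondrial acyl-CoA thioesterase, -0.64 (adjusted p = 0.219). In the fit without ac-WT 2 and 3 the log2 fold changes were -0.46 for Ech1, -0.42 for Slc25a4, -0.50 for Plin5 and -0.29 for Acot2. Without ac-WT 2 and 3, 3 of the 36 were lower (4.54% of all genes were), with a median of -0.19, and with total counts 5 were (2.06% of all genes), with a median of -0.32 relative to the median gene.

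Of 35 tested partners and modifiers of PGC-1, 6 were lower and 0 higher, and the median log2 fold change was -0.11. The 4 with the smallest p were the coactivator Ncoa1 (-0.30, edgeR adjusted p = 0.194), Perm1, a muscle regulator induced by PGC-1 and ERR (-0.91, adjusted p = 0.2004), the coregulator and phosphatidate phosphatase Lpin1 (-0.66, adjusted p = 0.252) and the p38α kinase gene Mapk14 (-0.38, adjusted p = 0.253). Perm1 was 82.6 ± 46.2 CPM (SD, n = 6) in ac-WT and 44.0 ± 5.81 CPM in ac-CYB5R3–KO hearts. Leaving out ac-WT 2 and 3 gave log2 fold changes of -0.21 for Ncoa1, -0.32 for Perm1, -0.26 for Lpin1 and -0.21 for Mapk14. Without ac-WT 2 and 3, 2 of the 35 were lower, and with total counts 1 was, where 4.54% and 2.06% of all genes were, so the count then lay near the share of all genes.

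Of 19 tested genes for transcription and replication of mitochondrial DNA, 0 were lower and 0 higher at an unadjusted p under 0.05 in edgeR (1 was lower with the replicate block), and the median log2 fold change was -0.08. The smallest p were those of the DNA polymerase Polg (-0.34, SE 0.17), the helicase Twnk (-0.26, SE 0.15), the RNA polymerase Polrmt (-0.33, SE 0.20) and Rnaseh1 (0.18, SE 0.11), with edgeR adjusted p from 0.362 to 0.464. Without ac-WT 2 and 3, 0 were lower and 0 higher, with a median of 0.02. The log2 fold changes were then -0.11 for Polg, -0.05 for Twnk, -0.0004 for Polrmt and 0.15 for Rnaseh1. With total counts 2 of the 19 were higher, near the 9.45% of all genes. None of these 3 lists held a gene with an adjusted p under 0.05 in edgeR.

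**Figure D5:**
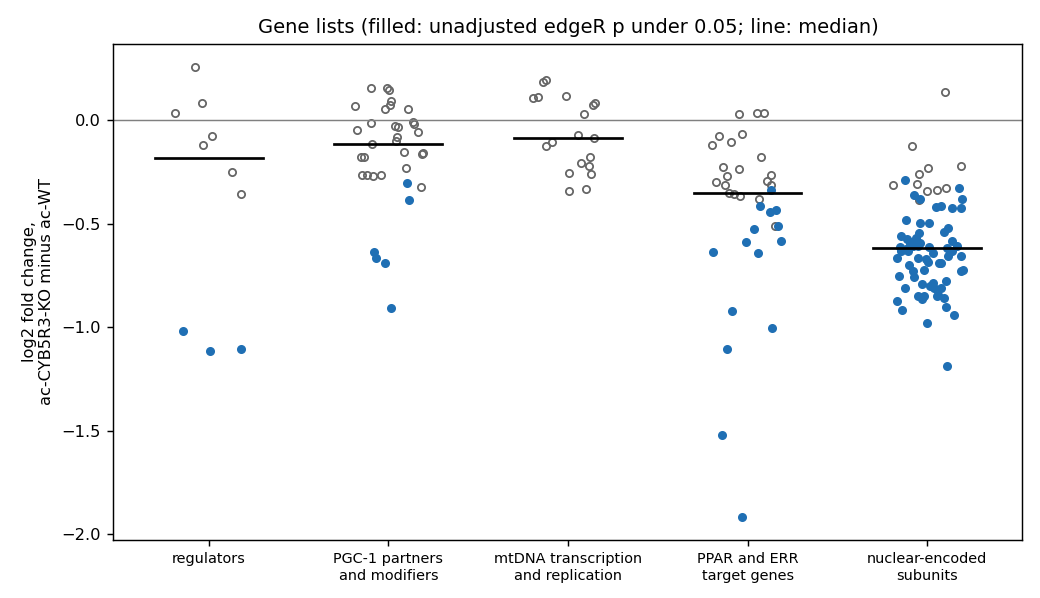
Log2 fold change (edgeR, ac-CYB5R3–KO minus ac-WT) of each tested gene in 5 lists; filled points have an unadjusted p under 0.05 and lines mark the medians. Filled points number 3 of 10 regulators, 6 of 35 partners and modifiers, 0 of 19 genes of mitochondrial DNA transcription and replication, 15 of 36 PPAR and ERR target genes and 70 of 81 nuclear-encoded subunits (50 without ac-WT 2 and 3 and 39 with total counts).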

How the data were processed

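RNA-Seq was done on 12 whole hearts with a stranded total RNA kit. The authors deposited raw counts, a whole number of reads per Ensembl gene and heart, neither normalized nor filtered. Per the submitters' processing notes they used STAR and featureCounts with GRCm39, while the methods of the study name mm9, so the build of the counts is open. Gene coordinates and lengths (the union of exons) are from GENCODE on NCBIM37, and promoter sequences from RefSeq on GRCm38.p6. Neither was converted.

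Columns were assigned by sample label, and all 12 were used. Counts were filtered (filterByExpr, minimum count 10), scaled by TMM and tested in edgeR 4.0.16 (R 4.3.3) by its quasi-likelihood test, two-sided, with no covariate and Benjamini-Hochberg adjustment over 17847 genes. The biological coefficient of variation was 26.5%, so the spread between mice, more than counting, limits precision. Correlations and exact permutation tests used log2(CPM + 1), with adjustment over all tested genes of a genotype. The scripts were tested on simulated data. Alternatives were DESeq2 1.42.0, limma-voom (limma 3.58.1), total counts, other filters, a replicate block, a pseudocount of 0.1, Spearman correlation, the 13 mitochondrially encoded subunits, and leaving out hearts.

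All 10 regulators are named. Other named genes are the 4 with the smallest p in each list, the 5 most like Ppargc1a and the 5 most like Esrra, and Cyb5r3. The regulators and lists were chosen with earlier results of these data known. Of 82 subunits listed, 81 were matched.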

Additional observations from a re-analysis of the deposited data

Results flagged for a closer look

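Of 24 sets of 6 hearts examined (the 10 regulators, Cyb5r3 and the subunit mean in each genotype), 4 had a heart far from the others. Chance would give about 1 such heart in 20 independent sets. These 24 sets share the same 12 hearts, so their number was not tested against chance. Esrrb was 12.5 CPM in ac-WT 2, and the next heart was 6.43 CPM. Esrrg was 15.5 CPM in ac-CYB5R3–KO 2, and the next was 9.47 CPM. Ppara was 1.10 CPM in ac-CYB5R3–KO 2, and the next was 0.855 CPM. The mean log2(CPM + 1) of the nuclear-encoded subunits was 7.44 in ac-CYB5R3–KO 3, and the next lowest was 7.71. Heart ac-CYB5R3–KO 2 thus held the highest value of Esrrg and Ppara in its group, and also of Esrrb at 7.0 CPM and Tfam at 19.2 CPM.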

How the results depend on the processing

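At an adjusted p under 0.05, edgeR called 18 genes, DESeq2 451, limma-voom 2, edgeR with total counts 8, without a filter 35, without ac-WT 2 and 3 7, and with 1 heart left out 2 to 38. Ppargc1a, Ppargc1b and Ppara were lower at an unadjusted p under 0.05 in all 20 fits, with Esrra as a 4th when ac-WT 1, 5 or 6 was left out, and 1 regulator was higher with total counts. Signs turned with total counts for Esrrb (0.13), Ppard (0.18) and Nrf1 (0.20), without ac-WT 2 and 3 for Esrrb (0.14), Ppard (0.0076) and Gabpa (-0.0273), and with 1 heart left out for Esrrb (-0.34 to 0.0657) and Gabpa (-0.0288 to 0.10). The cause was not tested. Same-numbered hearts are different mice, and no label says that they share a litter or day. Their deviations correlated at -0.160 to 0.360 (mean 0.133, against -0.0255 for other pairs), with 3 of 6 best with their own number, so pairing was not established. With the replicate block edgeR called 2 genes, Cyb5r3 had an adjusted p of 0.09999, and Ppargc1a a log2 fold change of -0.98.

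The 6 regulators with an exact permutation p under 0.05 for r with the subunit mean in ac-WT hearts became 0 with total counts and 0 with Spearman rho. The 3 in ac-CYB5R3–KO hearts became 0 with total counts and 1 (Esrra) with rho, and with mitochondrially encoded subunits 1 regulator passed that is none of the 3 (Nrf1, r = -0.93). In ac-WT hearts r changed sign with total counts for Ppargc1b (-0.31), Esrra (-0.12), Ppara (-0.25), Ppard (-0.27) and Nrf1 (-0.40), with rho for Nrf1 (-0.0286), and without hearts 2 and 3 for Ppargc1b (-0.31), Esrra (-0.36), Ppard (-0.27) and Gabpa (0.37). In ac-CYB5R3–KO hearts it did so for Ppargc1b (-0.37 with total counts, -0.22 without hearts 2 and 3), Ppara (-0.29) and Ppard (0.22) with mitochondrially encoded subunits, Ppard (0.75) and Nrf1 (0.55) without hearts 2 and 3, and Gabpa (0.0286) with rho. Over both genotypes with their means removed, leaving out ac-WT 2 and 3 and taking the means again, a setting added after seeing the data, turned r for Ppargc1b (-0.0622) and Ppard (-0.117). With 6 hearts a genotype, r is imprecise.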

Other observations

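Pairs of the regulators were set against each other within a genotype. Of 45 pairs, 15 had an unadjusted exact permutation p under 0.05 by Pearson r in ac-WT and 2 in ac-CYB5R3–KO hearts, and 6 and 4 by Spearman rho. The share over all pairs of genes was not computed, so these counts are a description. Several ac-WT pairs turned negative without hearts 2 and 3, among them Ppargc1a with Esrra (r from 0.85 to -0.97). The coactivators Ppargc1a and Ppargc1b had r = 0.84 in ac-WT hearts (exact permutation, p = 0.0306; rho = 0.49, p = 0.356), which became -0.54 without hearts 2 and 3, so that it rests on those hearts. In ac-CYB5R3–KO hearts their r was -0.79 (exact permutation, p = 0.0694; rho = -0.71, p = 0.136) and -0.04 without hearts 2 and 5. The difference between genotypes was not tested.

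The 2 pairs by Pearson r in ac-CYB5R3–KO hearts were Esrrb with Tfam (r = 0.94, exact permutation p = 0.00139, the smallest the pairings can give) and Esrrb with Esrrg (r = 0.87, exact permutation p = 0.0125), singled out after their values were seen. Esrrb, Esrrg and Tfam put the 6 hearts in the same order (rho = 1, exact permutation p = 0.00278 for both pairs, the smallest that the rank test can give). Without hearts 2 and 3 r was 0.92 and 0.89. In ac-WT hearts Esrrb and Tfam had r = 0.57 (exact permutation, p = 0.236), and Esrrb and Esrrg r = 0.83 (exact permutation, p = 0.0528).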
